A study of Mus musculus with 5 samples.

Results

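Mid-size regions of H3K27me3 that carry no H3K4me1 were described in mouse hematopoietic progenitors transformed by Hoxa9 and Meis1. They were chosen by length and by the absence of the other mark: autosomal H3K27me3 regions of at least 1000 bp and under 10000 bp that shared 0 bp with any H3K4me1 region. There were 9763 such regions, called H3K4me1-free regions below, among 33769 regions in the whole H3K27me3 list and 29566 on the 19 autosomes. They made up 72.8% of the 13413 autosomal regions of that length (95% exact interval 72.0 to 73.5). The other 3650 shared at least 1 bp with H3K4me1 and are called H3K4me1-sharing regions.

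The cells were bone marrow progenitors of C57B6 mice, depleted of lineage-positive cells, transduced with the retroviral vectors MIGR1-HA-Hoxa9 and MIGR1-Flag-Meis1 and kept in IL3. Chromatin immunoprecipitation with sequencing was made for H3K27me3, H3K4me1, the HA tag of the introduced Hoxa9 and the endogenous transcription factor C/EBPα, with 1 library each and 1 input library that was not used here. All libraries came from these transduced cells, so no untransformed cells stand beside them, and the sources used here do not say how many mice were taken or whether they were pooled. With 1 library per protein no value has a replicate error and no test between conditions was possible, so the intervals below cover counting error only, and neighbouring regions are not independent. Peak lists measure no expression, so the identity of the cells was not checked against marker genes.

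H3K27me3 is laid down by Polycomb repressive complex 2 and marks genes held silent during development, often over CpG-rich promoters. Where it spreads it forms domains many kilobases long, of which those over the Hox gene clusters are the best known. H3K4me1 marks enhancers, both active and poised, and the flanks of promoters. Hoxa9 is a homeodomain factor that drives myeloid leukemia together with its cofactor Meis1, and C/EBPα, of the basic leucine zipper family, is needed for granulocytes to form. Both act mainly at enhancers. The length of the H3K27me3 regions and their lack of H3K4me1 chose them, so values from these 2 lists are descriptions. The lists of factor peaks were not used by the rule. Most factor summits lay inside H3K4me1, however, so low counts of them in regions without it are partly fixed by the rule.

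Most H3K4me1-free regions were short and weak. Their median length was 1651 bp (quartiles 1224 and 2703), their median tag count 111 and their median fold enrichment over the caller's background 6.77 (quartiles 5.76 and 8.80). Tags per bp, which divides a region's tag count by its length, had a median of 0.0670 (quartiles 0.0599 and 0.0806). This was nearer to the 0.0544 of 14858 regions under 1 kb without H3K4me1 than to the 0.185 of 676 domains of 10 kb or more. H3K4me1-sharing regions were longer and stronger, with medians of 4136 bp, 0.118 tags per bp and 14.89 for fold enrichment. The H3K4me1-free regions covered 22.1 Mb, or 36.6% of all autosomal H3K27me3, and held 28.3% of its tags.

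**Figure D1:**
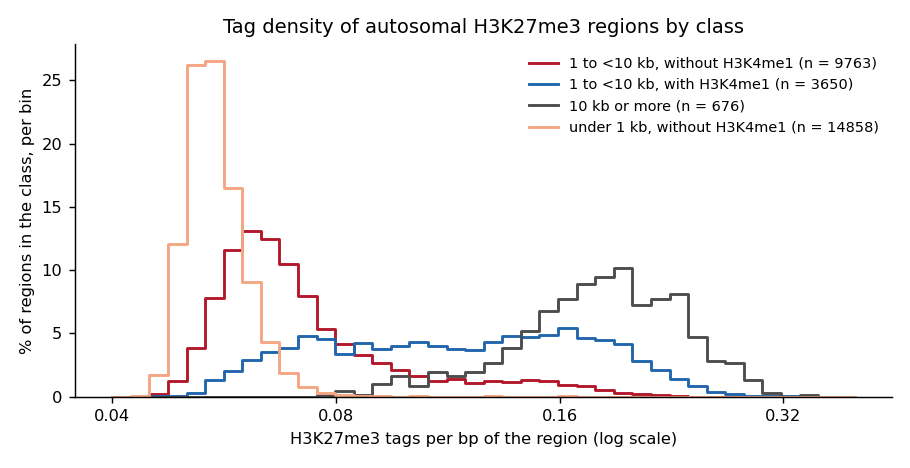
Share of regions in each bin of H3K27me3 tags per bp (log axis), as lines for H3K4me1-free and H3K4me1-sharing regions of 1 to under 10 kb, domains of 10 kb or more and regions under 1 kb without H3K4me1. The few regions beyond the axis are not drawn. The H3K4me1-free regions peak near their median of 0.0670, just right of the short regions, with a thin tail into the range of the domains, whose median is 0.185.

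Longer regions had a denser signal. From 1 to under 2 kb, which held 5995 of the H3K4me1-free regions, the median was 0.0619 tags per bp, and from 2 to under 3 kb it was 0.0728. From 3 to under 5 kb it was 0.0935, and in the 693 regions of 5 to under 10 kb it was 0.133. Across the 9763 regions length and tags per bp had a Spearman's rho of 0.716, as a description, since both come from the same tags and a stronger signal also extends a call.

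Within each length class H3K4me1-free regions stayed the weaker kind, by less than over all lengths. From 1 to under 2 kb, H3K4me1-free regions had 0.0619 and H3K4me1-sharing ones 0.0685 tags per bp, a ratio of 0.905. The ratio was 0.824 from 2 to under 3 kb, 0.765 from 3 to under 5 kb and 0.827 from 5 to under 10 kb. Length was not fully matched, since H3K4me1-sharing regions had the higher median length in all 4 classes. It was 1454 against 1293 bp from 1 to under 2 kb, and 6807 against 6165 bp from 5 to under 10 kb. Median fold enrichment in the longest class was 17.94 in H3K4me1-free and 24.04 in H3K4me1-sharing regions. The quartile ranges of the 2 kinds overlapped in all 4 classes. The share without H3K4me1 was lower in longer classes, with 89.9% from 1 to under 2 kb, 73.6% from 2 to under 3 kb, 59.2% from 3 to under 5 kb and 32.9% from 5 to under 10 kb. A longer region meets H3K4me1 more easily, so this order was not read further. Of the domains of 10 kb or more, 86.5% touched H3K4me1.

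**Figure D2:**
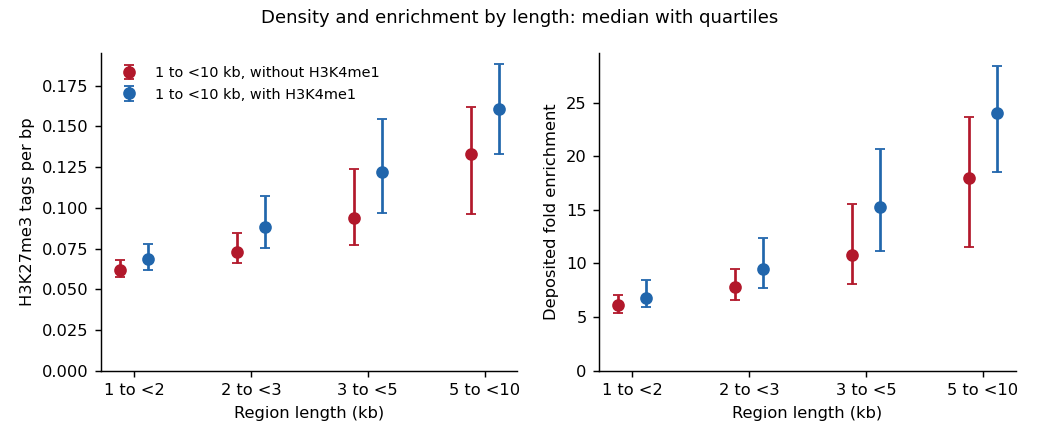
Median tags per bp (left) and median fold enrichment (right) by length class for H3K4me1-free and H3K4me1-sharing H3K27me3 regions, with bars from the lower to the upper quartile. H3K4me1-free regions lie lower in each class, at 0.133 against 0.161 tags per bp in the longest.

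A minority of H3K4me1-free regions was strongly enriched. A fold enrichment of 20 or more was reached by 445 of them (4.56%), with a median length of 5428 bp and 0.163 tags per bp, and these held 20.9% of the tags in all 9763. Another 1364 lay between 10 and 20, and the remaining 7954 (81.5%) were under 10, with a median length of 1466 bp. The strong ones among them stood farther from the other mark: the median distance to H3K4me1 was 36.9 kb at a fold enrichment of 20 or more, 19.4 kb from 10 to 20 and 7.77 kb under 10. The rule may shape this order, since it used H3K4me1. It left out 1246 H3K4me1-sharing regions with a fold enrichment of 20 or more, against the 445 kept. Strong H3K4me1-free regions also stood more alone, with 36.0% in groups (defined below) at 20 or more and 63.5% under 10.

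The highest fold enrichment, 42.61, belonged to a region of 3792 bp at chromosome 4 from 129828080 to 129831871 (mm9), with 614 tags and an H3K4me1 region only 102 bp away. Second was a region of 1718 tags on chromosome 1, from 75415761 to 75424540, with 36.23. A region at chromosome 7 from 35967579 to 35975586 had 35.89, and one at chromosome 11 from 118766167 to 118774249 had 35.21 and lay 62.5 kb from H3K4me1. These 4 had 0.162 to 0.226 tags per bp, which is the range of the broad domains. The longest regions varied in density. Among the 4 longest, chromosome 11 from 115199934 to 115209905 (9972 bp) had 0.0845 tags per bp and chromosome 6 from 72152287 to 72162152 (9866 bp) had 0.0779. The other 2, chromosome 17 from 85881419 to 85891319 (9901 bp) and chromosome 5 from 136359677 to 136369505 (9829 bp), had 0.163 and 0.164.

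The limits of the rule fell in continuous stretches of the data. The 131 H3K4me1-free regions less than 10 bp above the lower limit had a median of 0.0586 tags per bp, as did the 145 regions without H3K4me1 that missed it by 10 bp or less. At the upper limit, 13 regions of 9573 to 9972 bp had 0.134 and 13 of 10017 to 10454 bp without H3K4me1 had 0.140. Of the H3K4me1-free regions 97 lay under 100 bp from H3K4me1, with 0.0746 tags per bp, while 79 of the H3K4me1-sharing regions shared only 1 to 99 bp, with 0.0715.

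Most of the 9763 regions lay far from a broad domain, but closer than the genome at large. The median distance to the nearest H3K27me3 domain of 10 kb or more, edge to edge, was 395 kb (95% interval of the median 377 to 422), with quartiles of 61.8 and 1518 kb. It was 756 kb for H3K4me1-sharing regions, 485 kb for short regions without H3K4me1 and 2139 kb for all bases of the autosomal span outside the domains. The span is the stretch of each autosome between the first and last call of the 4 lists, 2412 Mb in all. Within 3 kb of a domain lay 5.90% of H3K4me1-free regions (5.44 to 6.39), 2.77% of H3K4me1-sharing regions (2.26 to 3.35) and 0.159% of bases.

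**Figure D3:**
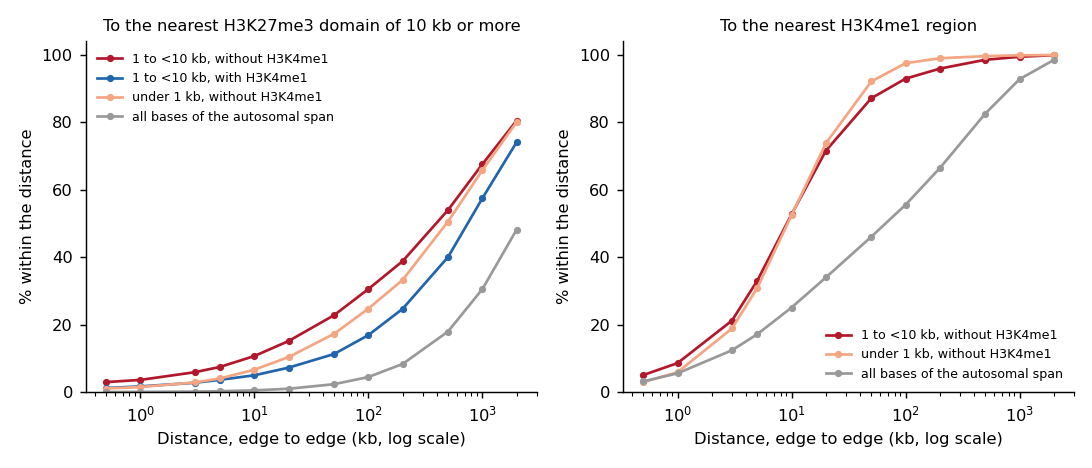
Cumulative share of regions within a distance (log axis, kb) of the nearest H3K27me3 domain of 10 kb or more (left) and of the nearest H3K4me1 region (right), with all bases of the autosomal span outside the target for comparison. At 10 kb from a domain H3K4me1-free regions reach 10.7%, H3K4me1-sharing ones 4.99% and bases 0.514%.

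A fringe of H3K4me1-free regions sat next to the domains. Of 676 domains, 396 (58.6%) had at least 1 such region within 3 kb, and 37 had 5 or more within 10 kb as their nearest domain. The closest lay 1 bp from a domain, on chromosome 1 from 157600113 to 157601639 and on chromosome 15 from 85414710 to 85415854. At 2 bp followed a region on chromosome 11 from 57637473 to 57638888 and one on chromosome 12 from 81626082 to 81628461. Such pairs are separate calls with almost no gap, so for them the border between domain and mid-size region rests on the calls as deposited. Regions in this fringe looked like the others: the 352 under 1 kb from a domain had a median of 0.0688 tags per bp and a length of 1745 bp, and the 3164 at 1000 kb or more had 0.0692 and 1719 bp. Strong regions were less frequent near domains, since 12.2% of those under 1 kb away and 25.2% of those at 1000 kb or more reached a fold of 10. The farthest lay on chromosome 16, from 63856450 to 63857878, at 27359 kb, with its neighbour from 63862720 to 63865419 at 27352 kb. On the same chromosome, regions from 65103673 to 65107133 and from 60604331 to 60606693 lay 26110 and 25057 kb from a domain.

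Some neighbouring calls together reached the length of a domain. Joining H3K27me3 calls across gaps of up to 3 kb gave 1720 stretches of 10 kb or more, and 3756 H3K4me1-free regions (38.5%) lay in them. Among them, 2575 were in stretches that held no single call of 10 kb. The median distance to the nearest such stretch was 21.3 kb, so the distance of 395 kb depends on the calls being taken as deposited. The 2 distances are not alike, because the 3756 regions that are themselves part of a stretch were counted as touching it.

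H3K4me1 was excluded from these regions by the rule but was seldom far. The median distance to the nearest H3K4me1 region was 9.06 kb (8.74 to 9.39), with quartiles of 3.57 and 23.4 kb. For all bases outside H3K4me1 the median was 67.2 kb, and for short H3K27me3 regions without H3K4me1 it was 9.32 kb. Within 10 kb of H3K4me1 lay 52.7% of the H3K4me1-free regions and 25.1% of bases. By side, 4.78% had H3K4me1 within 5 kb on both sides, 28.2% on 1 side and 67.0% on neither. At 20 kb the shares were 30.2%, 41.4% and 28.4%. Around the regions H3K4me1 covered 2.49% of bases in the first 1 kb, 4.59% from 1 to 2 kb, 6.76% from 5 to 10 kb and 8.41% from 50 to 100 kb, against 4.92% of the whole span. The low value next to the regions is partly fixed by the rule, which removes regions that touch H3K4me1.

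Many H3K4me1-free regions came in groups. With neighbours joined across gaps of up to 10 kb, 5807 of 9763 (59.5%, 58.5 to 60.5) lay in 1895 groups of 2 or more, and 3956 stood alone. Groups of 5 or more numbered 257, and 28 held 10 or more. Grouped regions were slightly weaker, with a median of 0.0661 tags per bp and 13.0% reaching a fold of 10, against 0.0692 and 26.6% in lone regions. Larger groups lay closer to domains, with a median of 103 kb in groups of 10 or more and 749 kb for lone regions. Counting neighbours of any size and kind, 50.2% of H3K4me1-free regions (49.2 to 51.2) and 43.1% of H3K4me1-sharing regions (41.5 to 44.7) had another H3K27me3 call within 500 bp. For domains the share was 64.1% (60.3 to 67.7), and for regions under 1 kb without H3K4me1 37.3% (36.5 to 38.1). Within 10 kb it was 83.8% for H3K4me1-free regions and 83.5% for those under 1 kb.

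The largest group held 20 H3K4me1-free regions over 94.1 kb at chromosome 19 from 25389979 to 25484101, with 1 Hoxa9 and 2 C/EBPα summits and 5 H3K4me1 regions in between. A group of 18 spanned 93.7 kb at chromosome 7 from 86697612 to 86791294, with 64.4% of its length in H3K27me3. The third, of 17 regions over 67.4 kb at chromosome 15 from 102589592 to 102656971, had 79.1% of its length in H3K27me3, no H3K4me1 region and 0 summits of either factor. Their median tags per bp were 0.0640, 0.0671 and 0.0703, all near the 0.0670 of all H3K4me1-free regions and under the 0.185 of domains. Over the 28 groups of 10 or more the span had a median of 55.6 kb, of which H3K27me3 took a median of 62.4% and H3K4me1 1.59%.

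Chromosomes differed in number more than in kind. There was a median of 3.97 H3K4me1-free regions per Mb over the 19 autosomes, from 2.15 on chromosome 10 to 7.89 on chromosome 11. Chromosomes 19 and 2 followed with 6.20 and 5.76. The median tags per bp stayed between 0.0653 and 0.0704 on every autosome, and the median length between 1576 and 1758 bp. Chromosome 11, with the most per Mb, also had the most domains and the most H3K4me1 regions per Mb, 0.539 and 65.5.

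Factor summits were rare in the H3K4me1-free regions. A summit is the point of highest signal in a factor's peak. Hoxa9 had 9 summits in them, each in a region of its own, which is 0.0922% of 9763 regions (0.0422 to 0.175), against 0.159% of all autosomal H3K27me3 regions. C/EBPα had 46, each in a region of its own, or 0.471% (0.345 to 0.628), against 1.19% of all autosomal H3K27me3 regions. Only 1 region held both, and 9709 held neither. These shares depend on length, so densities were compared instead.

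Per Mb, H3K4me1-free regions held 0.407 Hoxa9 summits (0.186 to 0.773) and the whole autosomal span 2.67. For C/EBPα the values were 2.08 (1.52 to 2.77) and 10.7. Much of this gap came with the rule, because 4494 of 6447 autosomal Hoxa9 summits and 16501 of 25877 C/EBPα summits lay inside H3K4me1. Against the span outside H3K4me1 the gap was smaller. There Hoxa9 had 0.852 summits per Mb, so that H3K4me1-free regions had 0.478 times that density (0.218 to 0.909), with 9 summits where that density gives 18.8. C/EBPα had 4.09 per Mb there, a ratio of 0.509 (0.372 to 0.679), with 46 summits where that density gives 90.4. The density in H3K4me1-free regions was under that of the H3K4me1-free span on 17 of 19 autosomes for each factor, the exceptions being chromosomes 8 and 11 for Hoxa9 and 12 and 18 for C/EBPα. However, 13 autosomes had 0 Hoxa9 summits and 2 had 0 C/EBPα summits in these regions.

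Flanking sequence gave a similar ratio. In the 10 kb on either side, outside both marks, Hoxa9 had 0.912 summits per Mb and C/EBPα 5.24, so that the density inside was 0.446 (0.198 to 0.885) and 0.397 (0.287 to 0.537) times as high. Outside H3K4me1, C/EBPα had 2.08 summits per Mb inside, 4.44 in the first 1 kb of flank and between 5.06 and 5.61 in the bins from 1 to 100 kb. Hoxa9 had 0.407 inside (0.186 to 0.773), and 1.44 and 1.46 in the flank from 0 to 1 and 1 to 2 kb. From 2 to 5 and 5 to 10 kb it had 0.675 and 0.706, which lay within the interval of the regions. H3K4me1-sharing regions had more C/EBPα in their parts outside H3K4me1, with 2.08 per Mb in H3K4me1-free regions and 5.41 in those parts, a ratio of 0.385 (0.258 to 0.569). For Hoxa9 the same ratio was 0.552 with an interval of 0.194 to 1.57, so a difference was not detectable with 9 summits in each. Domains of 10 kb or more had 3.58 C/EBPα summits per Mb outside H3K4me1, and the density in H3K4me1-free regions was 0.581 times that (0.366 to 0.929). For Hoxa9 the ratio to domains was 1.99 (0.412 to 18.9), from 2 summits in the domains. The ratios to the flanks, and to these parts of H3K4me1-sharing regions and of domains, were not matched on distance to H3K4me1. Such parts mostly adjoin it, and outside H3K4me1 factor summits were densest in the first 1 kb around it. Against regions under 1 kb without H3K4me1 the ratio was 1.13 (0.647 to 2.04) for C/EBPα and 0.598 (0.198 to 1.89) for Hoxa9, and no difference was detectable at these counts.

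**Figure D4:**
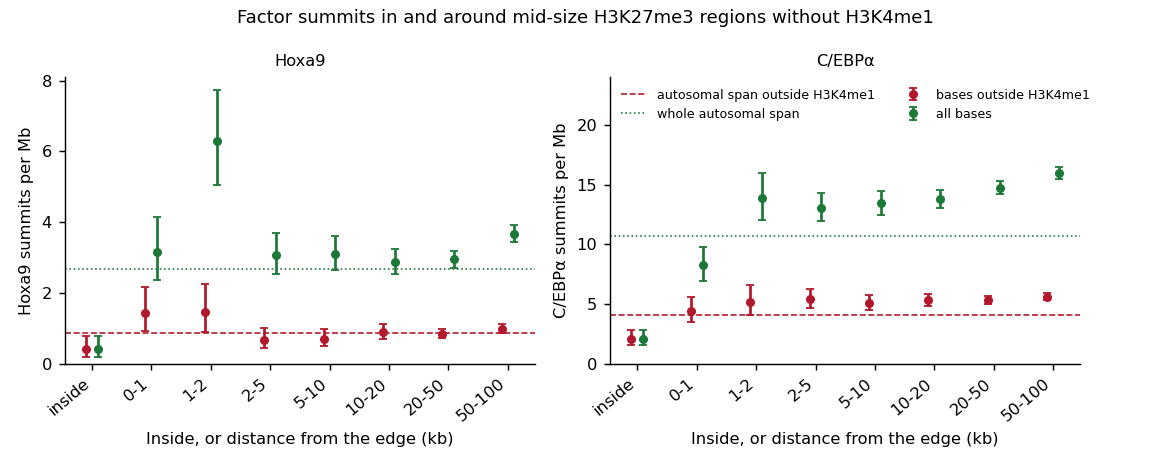
Hoxa9 (left) and C/EBPα (right) summits per Mb inside H3K4me1-free regions and in bins of distance from their edges, for bases outside H3K4me1 and for all bases, with 95% exact Poisson intervals. Dashed and dotted lines give the autosomal span outside H3K4me1 and the whole span. C/EBPα outside H3K4me1 is 2.08 per Mb inside and 4.44 to 5.61 in the flanks, and Hoxa9 over all bases is highest from 1 to 2 kb, at 6.28.

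The ratio changed with how the distance to H3K4me1 was taken into account. Outside H3K4me1, factor summits crowded the first 1 kb around it, with 8.64 Hoxa9 and 32.8 C/EBPα summits per Mb, where H3K4me1-free regions had only 0.466 Mb. With regions and span both kept at least 1000 bp from H3K4me1, the ratio was 1.14 for Hoxa9 (0.520 to 2.18), which turned its direction, and 0.849 for C/EBPα (0.609 to 1.15). Within 20 kb of H3K4me1, H3K4me1-free regions had 1.87 C/EBPα summits per Mb and all bases at that distance 9.36, which puts the interval of the ratio at 0.131 to 0.291. Of the 7302 summits in these bases 4187 lay in the first 1 kb, where the regions had 0.466 of their 14.4 Mb. From 1 to 2, 2 to 5, 5 to 10 and 10 to 20 kb the regions had 1.89, 1.63, 1.07 and 2.42 per Mb. All bases had 8.39, 5.03, 4.16 and 3.57, of which only the last lay within the interval of the regions (1.21 to 4.33). Over 20 kb away the regions had 2.48 per Mb and all bases 1.37, a ratio of 1.81 (1.09 to 2.83). This pooled value sets regions mostly at 20 to 50 kb (3.99 of 7.67 Mb) against bases mostly over 100 kb away (1019 of 1513 Mb). From 20 to 50 kb the regions had 2.51 per Mb (1.20 to 4.61) and all bases 2.94. They had 3.09 (1.004 to 7.21) and 2.05 from 50 to 100 kb, and 1.94 (0.528 to 4.96) and 0.799 beyond, so in each of these bins the value of all bases lay within the interval of the regions. For Hoxa9 the ratio was 0.175 (0.0567 to 0.409) within 20 kb, from 5 summits, and 1.93 (0.522 to 4.97) beyond it, from 4. Here too most summits of all bases within 20 kb, 1105 of 1543, lay in the first 1 kb, where the regions had 0. When each region was instead set against all bases at its own distance from H3K4me1, the ratio was 0.556 for Hoxa9 (0.254 to 1.06) and 0.484 for C/EBPα (0.354 to 0.645). The split at 20 kb and the match on distance were chosen after the values were seen. Bases over 20 kb from H3K4me1 include stretches where few calls of any kind were made, and how much of them could be mapped was not tested.

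**Figure D5:**
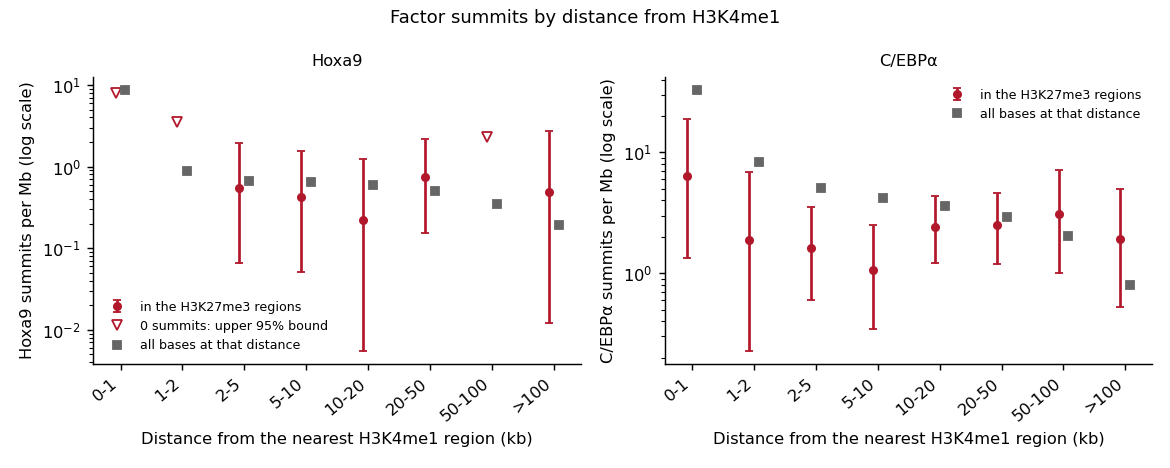
Hoxa9 (left) and C/EBPα (right) summits per Mb (log axis) by distance from the nearest H3K4me1 region, in H3K4me1-free H3K27me3 regions with 95% exact Poisson intervals and in all bases at that distance. Triangles mark the upper bound where the regions held 0 summits. C/EBPα in the regions lies under all bases from 0 to 50 kb and over them beyond 50 kb.

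The summits found in these regions belonged to weak peaks. The 9 Hoxa9 peaks had fold enrichments from 2.51 to 5.76 with a median of 4.18, against 5.58 for 1944 Hoxa9 peaks elsewhere outside H3K4me1 and 6.37 for those in it. Their p scores, which the caller gives as −log10 of p multiplied by 10, ran from 50.32 to 74.24, close to the lowest score in the list. For the 46 C/EBPα peaks the median was 5.58, against 6.89 elsewhere outside H3K4me1 and 8.37 in it, and 6 of them reached 10. With only peaks of a p score of 100 or more, Hoxa9 had 0 summits in H3K4me1-free regions (a ratio of 0 with an upper bound of 0.494) and the ratio for C/EBPα was 0.324 (0.195 to 0.506).

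The strongest Hoxa9 peak in an H3K4me1-free region, with a fold enrichment of 5.76 and 22 tags, lay at chromosome 13 from 55010098 to 55010597. The H3K27me3 region there, from 55007136 to 55010708, had 259 tags. Next were peaks with 5.49 at chromosome 11 from 61131733 to 61132163, and with 5.40 at chromosome 9 from 45315522 to 45316179. The chromosome 11 region, from 61131574 to 61133736, was the one that held both factors, its C/EBPα summit lying at 61132056 and its Hoxa9 summit at 61131948. The other 6 regions with a Hoxa9 summit were on chromosome 4 (135816663 to 135820378), chromosome 5 (74111043 to 74114560), chromosome 8 (11718979 to 11721529) and, for 3 of them, chromosome 11. The last 3 ran from 88827741 to 88832689, from 98384956 to 98388387 and from 100005102 to 100009001. Chromosome 11 thus held 4 of the 9, at 1.87 per Mb of its 937 H3K4me1-free regions, while chromosome 2 had 0 in 1030. The region at 100005102 was the strongest of the 9, with 0.151 tags per bp and a fold enrichment of 24.38, and it lay 143.3 kb from H3K4me1. The one at 88827741 had 0.427 tags per bp at a fold enrichment of only 6.64.

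The strongest C/EBPα peak in an H3K4me1-free region had a fold enrichment of 13.66 and 48 tags, at chromosome 18 from 37880831 to 37881564. Its summit lay 72 bp inside the edge of an H3K27me3 region of 1461 bp, from 37879797 to 37881257, that belonged to a group of 10. Peaks with 13.13 at chromosome 2 from 72649241 to 72649898 and with 12.68 at chromosome 11 from 116379776 to 116380445 followed. The fourth, with 11.14 at chromosome 5 from 118291686 to 118292449, lay 1853 bp inside a region of 4004 bp with a fold enrichment of 19.64. Of the 46 C/EBPα summits 27 (58.7%) were within 500 bp of a region's edge, a zone that made up 44.2% of the regions' length. For Hoxa9 it was 4 of 9. No interval was computed for these shares, so no preference for the edge was read from them.

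Between grouped H3K4me1-free regions the factors were present. The 3912 gaps inside groups covered 10.1 Mb, with a median of 1492 bp, and 439 of them (11.2%) held an H3K4me1 region. Hoxa9 had 83 summits in the gaps, or 8.23 per Mb (6.56 to 10.2), against 0.465 (0.171 to 1.01) in the grouped regions and 2.67 over the whole span. C/EBPα had 174, or 17.3 per Mb (14.8 to 20.03), against 1.94 (1.25 to 2.86) in the grouped regions and 10.7 over the span. The summits were spread over many gaps: 81 gaps held Hoxa9, 161 held C/EBPα and 45 held both. Most were in H3K4me1, with 59 of the 83 for Hoxa9 and 105 of the 174 for C/EBPα in the 0.573 Mb of it inside gaps. Outside H3K4me1 the gaps had 2.52 Hoxa9 summits per Mb (1.62 to 3.76) and 7.26 C/EBPα summits per Mb (5.65 to 9.19), against 0.852 and 4.09 in the span outside H3K4me1. The 439 gaps that held H3K4me1 had the higher densities outside it, with 6.03 Hoxa9 (3.12 to 10.5) and 16.1 C/EBPα (11.0 to 22.7) summits per Mb. In the 3473 gaps without H3K4me1 the values were 1.596 (0.825 to 2.79) and 4.92 (3.47 to 6.78), intervals that include those of the span.

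H3K4me1 regions enclosed in such gaps held Hoxa9 more often than H3K4me1 regions at large. There were 596 of them, and 57 (9.56%, 7.32 to 12.2) held a Hoxa9 summit, against 4.35% of all 99004 autosomal H3K4me1 regions. For C/EBPα the share was 16.9% (14.0 to 20.2) against 15.2%, which lies within the interval. Length did not differ much, with medians of 759 and 773 bp. Among H3K4me1 regions of 1000 bp or more, 21.6% in gaps (16.1 to 28.0) and 9.73% overall held Hoxa9. Under 1000 bp the shares were 3.53% (1.94 to 5.85) and 1.01%. For C/EBPα they were 32.7% (26.2 to 39.7) in gaps and 30.8% overall from 1000 bp up, and 9.07% (6.43 to 12.3) and 5.54% under 1000 bp, so the overall share lay outside the interval for the short ones. This comparison was made after the values in the gaps were seen, no test was made of it, and neighbouring regions are not independent.

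The point of highest H3K27me3 signal was more often central in long regions than in short ones. The summit fell in the middle one of 3 equal parts in 49.3% of H3K4me1-free regions (48.3 to 50.3) and 64.3% of H3K4me1-sharing ones (62.7 to 65.8). By length the share was 42.9% from 1 to under 2 kb, 51.2% from 2 to under 3 kb, 64.7% from 3 to under 5 kb and 69.4% from 5 to under 10 kb.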

How the data were processed

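The submitters' processing notes name the build mm9 and 3 programs, MACS 1.4, BWA 0.6.2 and CASAVA 1.8.2. How the caller was set, and against which control, is not given in the sources used here. Each list came from 1 library. Per the file headers, the deposited lists gave positions, tag counts (whole tags per peak, not normalized), a p score of 10 times −log10 p, the fold enrichment (a linear ratio) and the false discovery rate in percent. Fold values and scores are the authors' and were used only to describe or filter within a list.

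Overlaps, gaps, distances (bases between edges) and summit densities were computed with Python 3.11.15, numpy 2.4.6, pandas 2.3.3 and scipy 1.17.1, with plots by matplotlib 3.10.9. Sharing meant at least 1 bp. Intervals are exact at 95% (Clopper-Pearson for shares, Poisson for densities, conditional binomial for ratios, order statistics for medians). For the ratios matched on bins of distance from H3K4me1, the Poisson interval of the count was divided by the expected count instead. The code was checked on simulated lists. No test was made, since each group was 1 library. The depth of each library is unknown, as no totals were given. The lowest tag count was 20 in the H3K27me3 list and 46 in the regions described, so weaker sites are missing.

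The regions and alternatives were chosen with earlier results of these data known. Regions were named by rank: the 4 highest, longest, nearest and farthest, those with most tags per bp, the 3 largest groups and those with factor summits. Genes and sequences are not used here, because the annotation at hand is of GRCm38 and the peaks are of mm9.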

Additional observations from a re-analysis of the deposited data

How the results depend on the processing

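Of 103 alternatives to 9 values, 71 stayed within the interval of the main value (for the number of regions, within 1.5 times), 31 moved and 1 turned its direction. The cause was not tested. The ratio of Hoxa9 density to the H3K4me1-free span became 1.14 with both kept 1000 bp from H3K4me1, where C/EBPα became 0.849. With factor peaks of a p score of 100 or more these ratios were 0 and 0.324. In all, 27 of 28 alternative ratios were under 1, and in 22 the whole interval was. For C/EBPα the interval reached past 1 only with both kept 1000 bp from H3K4me1 (upper bound 1.15). For Hoxa9 it did so there (2.18) and with the match on bins of distance from H3K4me1 (1.06). It also did so at a false discovery rate of 0.5% or less (1.14), from 2000 bp up (1.33) and without chromosome 2 (1.008). The alternative of a false discovery rate of 5% removed no region, since the highest was 1.34%.

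From 2000 bp up there were 3768 regions, with 0.0845 tags per bp, 441 kb to a domain, 11.2 kb to H3K4me1 and 33.8% in groups. With the fold enrichment at 5 or above, the density was 0.0681 and 57.1% were in groups, and at a p score of 100 or more the density was 0.0676. Without H3K4me1 within 1000 bp, it lay 10.5 kb away and 57.0% were in groups. Counting only H3K4me1 regions with a p score of 100 or more, the density was 0.0677 and the distance 11.4 kb. The distance to a domain was 3916 kb for domains of 20 kb and 21.3 kb after merging over gaps of 3 kb, where regions inside a merged stretch counted as touching it. Gaps of 5 and 25 kb put 50.2% and 71.1% in groups. Chosen after seeing the data, a false discovery rate of 0.5% or less kept 6068 regions, with 0.0753 tags per bp, 423 kb to a domain, 9.76 kb to H3K4me1 and 45.1% in groups. With fold enrichment at 10 or above, also added later, 1809 were kept, with 0.119, 762 kb, 23.5 kb and 14.1%. In each filtered list groups were formed again from the kept regions only, so the loss of neighbours lowers these shares. In groups of all 9763 regions, 36.0% were grouped at a fold of 20 or more and 43.8% from 10 to 20. At 10 or above Hoxa9 had only 1 summit, or 0.126 per Mb (0.00319 to 0.703). Its ratio was 0.148 (0.00375 to 0.827), an interval that includes the main ratio of 0.478. Leaving out chromosome 2 moved none of the 9 values beyond its interval, but the interval of the Hoxa9 ratio (0.242 to 1.008) then reached 1. With 9 Hoxa9 summits in these regions, only large differences could be seen.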

Other observations

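A few H3K4me1-free regions combined very many tags with little enrichment. The region at chromosome 17 from 39979160 to 39986148 held 14447 tags, or 2.07 per bp, at a fold enrichment of 2.29, the lowest of all 9763, and a C/EBPα summit. A region at chromosome 6 from 3150545 to 3151768 had 0.636 tags per bp at a fold enrichment of 4.10, one at chromosome 11 from 108872576 to 108873761 had 0.563 at 5.68, and one at chromosome 16 from 57390920 to 57392101 had 0.541 at 7.47. In all, 6 regions had 0.5 or more tags per bp, as did 0 of the 3650 H3K4me1-sharing regions, 2 of the 676 domains and 1 of the 14858 regions under 1 kb without H3K4me1. Without these 6, the median tags per bp was unchanged at 0.0670 and C/EBPα had 2.04 summits per Mb.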
